A study of Drosophila melanogaster with 2 samples.

Results

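The retinal determination genes are 10 genes of Drosophila melanogaster, ey, toy, eya, so, dac, eyg, toe, tsh, tio and Optix, taken by name from the Release 6 annotation out of 13968 protein-coding genes on the 7 chromosome arms. At each of them the deposited regions of a chromatin immunoprecipitation sequencing (ChIP-seq) experiment on the nuclear protein Dan were read across the gene body and 20 kb either side. The experiment used whole embryos, 0 to 8 h after laying, of the strain dan-GFP, in which an insertion targeting dan gives a Dan protein tagged with eGFP (a green fluorescent reporter). Chromatin was precipitated with an antibody against GFP. The sources used here do not give the promoter of the fusion or the number of embryos pooled. A single group of 2 biological replicates was made, with no second genotype, stage or treatment, so the comparisons below are between genes and between replicates. Whole embryos mix all cell types, and regions bound in few cells cannot be told apart from regions bound weakly in many.

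The retinal determination genes encode a network of nuclear proteins known for specifying the compound eye in the larval eye disc. Loss of several members reduces the eye, and forced expression of several starts eye development elsewhere. The Pax6 proteins Eyeless (ey) and Twin of eyeless (toy) stand high in the network, Eyes absent (eya) and Sine oculis (so) form a coactivator and DNA-binding pair, and Dachshund (dac) acts with them. Dan and its relative Danr are known to take part in eye development with this network, in addition to their part in antennal identity. Embryos of this age precede the eye disc stages for which the network is best known.

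Each region has 3 deposited values used here. The signal is the peak caller's own value against a control, and it ranks regions within a list. The score is a scaled logarithm of the irreproducible discovery rate (IDR), which measures how well a region's rank agrees between sets of calls. A score of 1000, the maximum, means an IDR of at most 0.00391. The summit is the position of the highest signal in the region. The conservative list holds 1170 peaks, whose lowest score of 830 is an IDR of 0.01, and the ranked list of both replicates holds 130105 regions, most of them weak. The depth of the libraries is unknown, since the lists give no read counts.

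Peaks past the threshold lay near eya and Optix and near none of the other members. Of the 10 genes, 2 had a conservative peak with its summit in the gene or within 20 kb, or 20%. The share over all protein-coding genes was 34.5%. For 10 independent draws, an exact 95% interval around 20% runs from 2.52 to 55.6%. These genes were named and not drawn, and the windows of eyg and toe overlap. The interval therefore only shows how little 10 genes can tell, and the difference was not tested. The eya window held 1 such peak and the Optix window 2. The other thresholded list of the series gave the same 2 genes, where 38.8% of all genes had a peak. Replicate 1's own list gave 3 genes, eya, dac and Optix, against a background of 33.2%, and replicate 2's own list gave eya and Optix, against 21.8%. None of the conservative peaks lay in the body of a member, where 3.5% of all genes had one. No conservative peak had a member's start site (TSS) as its nearest, while 6.19% of all genes held that place for at least 1 peak. With background shares this low, 10 genes are too few for these 2 absences to show a difference. Per unit of sequence, the merged windows of the members held 5.68 conservative peaks per Mb, and the 7 arms as a whole 7.84. The value for the members rests on 3 peaks. Its windows include those of ey and toy on chromosome 4, where no conservative peak was listed.

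**Figure D1:**
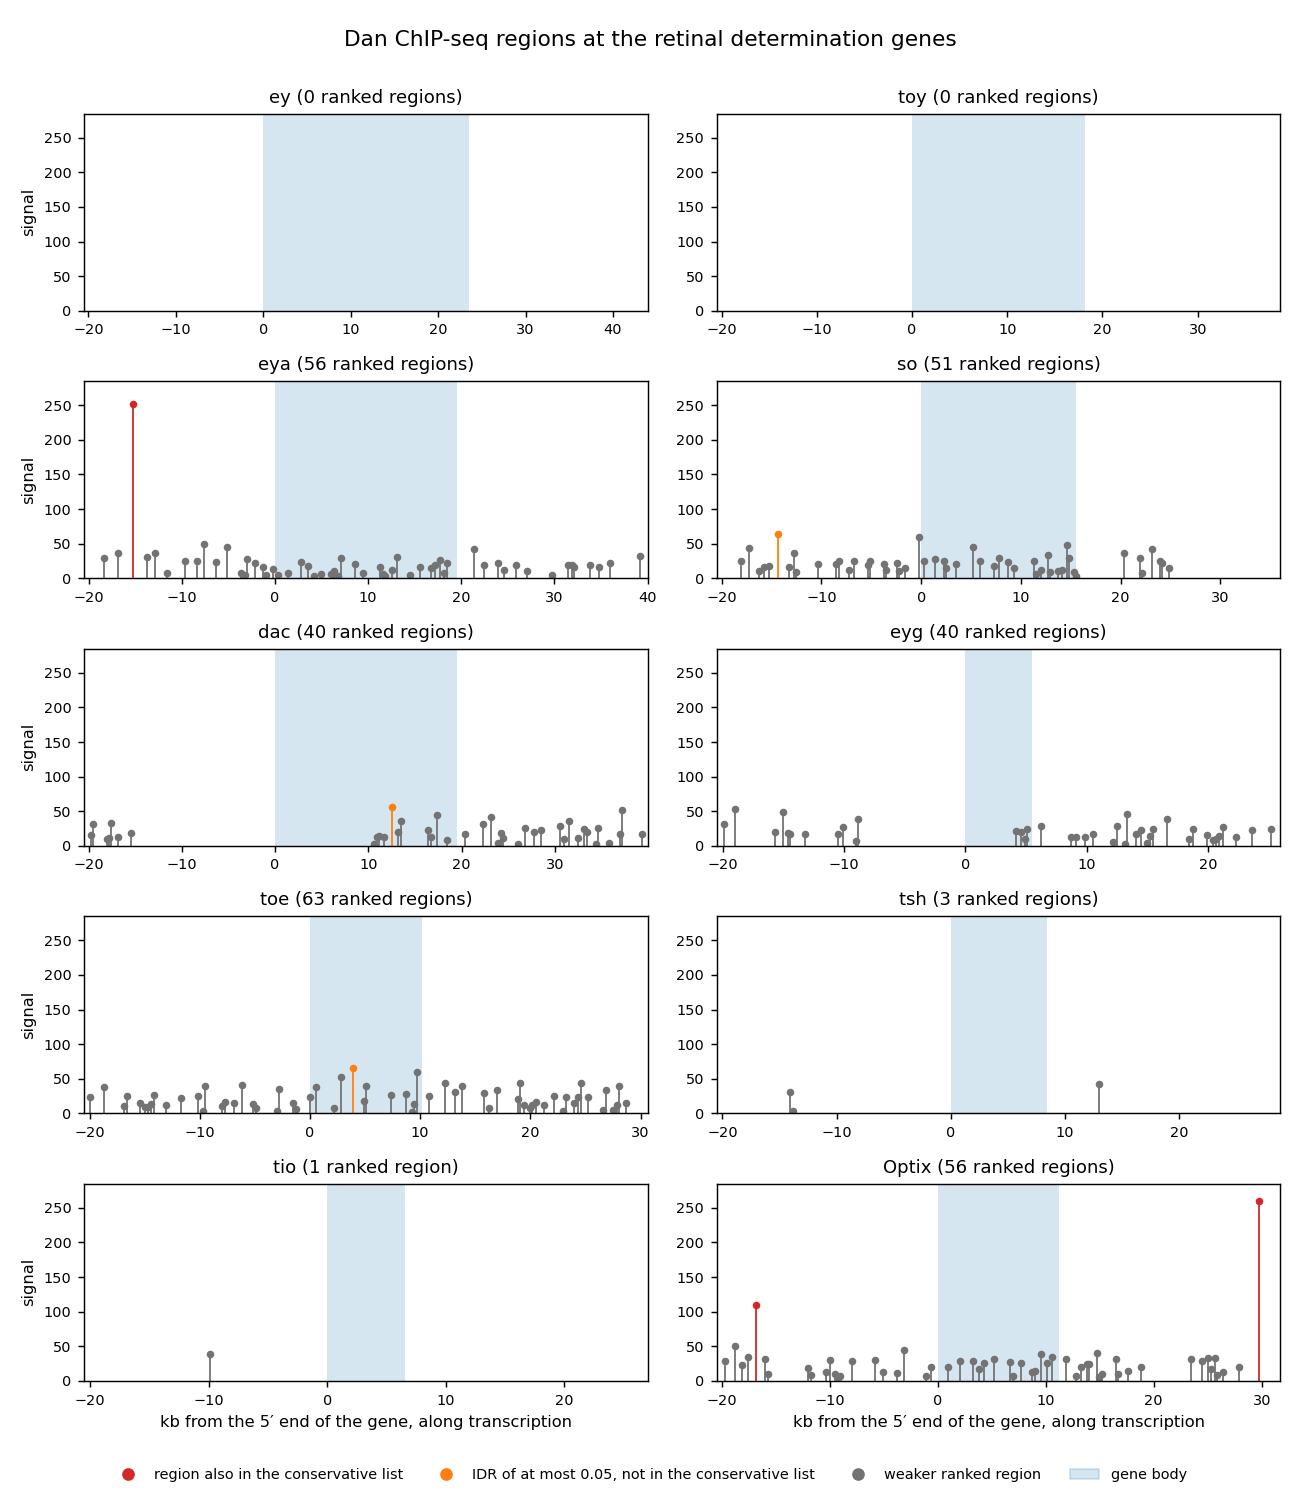
Signal of each ranked region of the list of both replicates (vertical axis, the peak caller's value) by its distance in kb from the 5′ end of the gene along the direction of transcription (horizontal axis), with the gene body shaded. Red marks regions in the conservative list, orange those with an IDR of at most 0.05 that are not in it, and grey the weaker ones; the 2 tall peaks at Optix and the 1 at eya all lie outside the gene bodies, and ey and toy have no region.

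At eya, which encodes a transcriptional coactivator with a phosphatase domain (FBgn0000320, dm6, chromosome 2L, 6527447 to 6546976, minus strand), the peak stood far above everything else in the window. It spanned 6562112 to 6562274 with a signal of 252 and the maximal score. The value was 138 in replicate 1 and 123 in replicate 2, which put it at the 99.9th percentile of the ranked regions in each. Both replicates placed it among their highest regions. The next strongest of the 56 ranked regions in the window had a signal of 49.5. The peak lay 15.2 kb upstream of the TSS of eya, beyond other genes. Its summit was 102 bp from the TSS of Trmt6, a tRNA methyltransferase subunit gene, and 138 bp from that of Ent2, a nucleoside transporter gene, which face away from each other.

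The summit at eya lay in the short intron near the start of Trmt6, and that intron is shown because it holds the strongest Dan signal near a retinal determination gene on 2L in the list of both replicates. It runs over chr2L:6562113-6562208 and is printed from the plus strand of the Release 6 reference, with the 21 bases around the summit in capitals.
eya peak: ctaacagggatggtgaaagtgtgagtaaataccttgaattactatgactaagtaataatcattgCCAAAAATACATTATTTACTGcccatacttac
These 96 bases had 32.3% G and C, and the 201 bases around the summit had 44.3%.

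The start sites of eya itself carried only weak regions. The gene has 3 annotated start sites, and the strongest ranked region within 500 bp of any of them had a signal of 16.1, at the 38.0th percentile of the list. Ranked regions within 500 bp of a start were listed for 4 of 10 members, eya, so, toe and Optix, and for 58.6% of all genes. Within the gene body 24 ranked regions were listed. The median signal over the window was 18.2, and over all ranked regions it was 20.3. A second conservative peak, with a signal of 211, lay 36.5 kb beyond the 3′ end of eya and 87 bp from the TSS of Phf5a.

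Optix encodes a homeodomain protein related to So that is known to promote eye development on its own (FBgn0025360, chromosome 2R, 8031283 to 8042529, plus strand). The stronger of its 2 peaks, at 8060952 to 8061094, had a signal of 260, the highest at any of the 10 genes. It lay 18.5 kb beyond the 3′ end of Optix, in an intron of CG12769 and 2476 bp from the nearest annotated TSS. Replicate 1 gave it 139 and replicate 2 gave it 114, at the 99.9th percentile in each. The second peak, at 8014250 to 8014599, had a signal of 110 and lay between genes, 16.9 kb upstream of Optix and 670 bp from a TSS of CG14762. Replicate 1 gave this peak 74.8 and replicate 2 gave it 51.0. Its score was 1000 in replicate 1's own ranked list and 794 in replicate 2's, just under the threshold there, so it was in the thresholded list of replicate 1 alone. Near the start sites of Optix the strongest ranked region had a signal of 38.3, at the 87.5th percentile. Outside the window, a further conservative peak with a signal of 59.5 lay 26.0 kb beyond the gene's end, 230 bp from the TSS of lig.

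The gene so encodes the DNA-binding partner of Eya, a homeodomain protein of the sine oculis homeobox family (FBgn0003460, chromosome 2R, 7419350 to 7434872, plus strand). Its window held 51 ranked regions and no thresholded peak in any of the 4 lists. The strongest had a signal of 64.3 and a score of 640, an IDR of 0.0288. It lay 14.3 kb upstream of so, at 7404826 to 7405175 in an intron of Eaf. Replicate 1 had 25.0 there and replicate 2 had 34.1, at percentiles of 92.9 and 97.8.

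The promoter of so had the highest signal at any start site of the 10 genes. That region, at 7418904 to 7419253, had a signal of 59.0, at the 98.1st percentile, with its summit 271 bp upstream of the TSS. Its IDR, from a score of 382, was 0.120, so it was well outside the threshold. In replicate 1 it was the strongest region of the window, with a signal of 41.1 at the 98.7th percentile, and in replicate 2 it had 20.6 at the 81st. A further region over the last exon of so, at 7433810 to 7434159, had a signal of 48.6. The nearest conservative peak was 84.3 kb from so.

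At dac the 2 replicates disagreed. Dachshund is a nuclear cofactor related to the Ski and Sno proteins (FBgn0005677, chromosome 2L, 16466512 to 16485998, minus strand). Replicate 1 had a thresholded peak at 16500546 to 16500680, in an intron of Tpr2, a tetratricopeptide repeat protein gene, 14.6 kb upstream of dac. Its signal of 143 was the highest of replicate 1 at any of the 10 genes. No ranked region of replicate 2 and none of the ranked list of both replicates overlapped it. Of the 1071 thresholded peaks of replicate 1, 120 (11.2%) likewise had no overlapping region in either, and 8 of these 120, with the one near dac, had a signal at least as high. The region was 135 bp wide, and 121 peaks of the list, or 11.3%, were under 200 bp wide. The median width was 316 bp over those 120 peaks and also over the whole list.

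The strongest region at dac that both replicates shared lay in the gene. It had a signal of 55.6 and a score of 688, an IDR of 0.0220, and lay in a coding exon at 16473273 to 16473622. Replicate 1 had 27.8 there and replicate 2 had 31.7, at percentiles of 95.5 and 96.9. The region that only replicate 1 lists and the one shared by both differ in base composition. They are printed from the plus strand as chr2L:16500546-16500680 and chr2L:16473348-16473548, with the 21 bases around the summit in capitals.
dac region of replicate 1: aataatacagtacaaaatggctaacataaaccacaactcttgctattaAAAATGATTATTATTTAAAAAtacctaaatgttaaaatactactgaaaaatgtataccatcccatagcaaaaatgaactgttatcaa
dac strongest region: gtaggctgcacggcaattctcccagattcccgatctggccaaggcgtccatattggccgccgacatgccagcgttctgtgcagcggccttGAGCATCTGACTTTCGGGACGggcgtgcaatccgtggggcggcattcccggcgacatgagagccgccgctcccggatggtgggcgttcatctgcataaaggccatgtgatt
The share of G and C was 24.4% in the 135 bases of the region found in replicate 1 alone and 61.7% in the 201 bases from the exon of dac. Over the 201 bases around its summit, the region of replicate 1 had 33.3%.

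The neighbours eyg and toe encode Pax proteins with a partial paired domain and a homeodomain, and eyg is known for promoting growth of the eye disc. They lie on chromosome 3L on the minus strand, toe (FBgn0036285) at 12422510 to 12432668 and eyg (FBgn0000625) at 12462537 to 12468021, so close that 12 ranked regions fell in both windows. Neither had a thresholded peak in any list. The toe window held 63 ranked regions, the most of the 10 genes, and eyg 40. The strongest at toe had a signal of 65.2 and lay in an intron of toe at 12428605 to 12428954, 3888 bp from the TSS. Its score of 709, an IDR of 0.0196, was, in the list of both replicates, the closest to the threshold of any region that missed it at these genes. In replicate 1 its signal was 28.0, at the 95.6th percentile, and in replicate 2 it was 32.7, at the 97.3rd. Its score in the replicates' own ranked lists was only 29 and 42.

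That region is shown as the nearest miss within a member's body in the list of both replicates, from chr3L:12428680-12428880, plus strand, with the 21 bases around the summit in capitals.
toe strongest region: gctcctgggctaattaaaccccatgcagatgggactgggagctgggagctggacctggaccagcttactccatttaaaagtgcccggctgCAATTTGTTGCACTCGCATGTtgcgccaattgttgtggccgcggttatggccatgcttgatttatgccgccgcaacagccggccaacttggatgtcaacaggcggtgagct
These bases had 55.7% G and C. A region over an exon of toe at 12422811 to 12423160 followed, with a signal of 60.1 in the list of both replicates, 41.8 in replicate 1 and 21.9 in replicate 2.

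At eyg no region came near the threshold. The strongest in its window had a signal of 53.4 and a score of 187, and lay 19.0 kb upstream over an exon of CG10660. Replicate 1's strongest, in an intron of CG10663 and CG33725, had a signal of 30.7 and a score of 534, while no ranked region of replicate 2 overlapped it. Replicate 2's strongest, with 30.2, lay over an exon of eyg itself and had no overlapping region in replicate 1.

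The zinc finger genes tsh and tio lie near the base of 2L and had almost no regions. Teashirt is known as a trunk identity factor in the embryo and as a member of the eye network later, and Tiptop is its paralog. The tsh window (FBgn0003866, gene at 21828593 to 21837011, plus strand) held 3 ranked regions and the tio window (FBgn0028979, gene at 22019208 to 22025734, plus strand) held 1. Replicate 1 listed 9 and 13 regions in these windows and replicate 2 listed 12 and 2. No region of the list of both replicates lay in either gene body, while replicate 2 alone had at least 1 within tsh. Within the 1 Mb centred on each gene the density was 22.3 ranked regions per 100 kb around tsh and 30.6 around tio, and 91.0 over the whole of 2L.

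The strongest region at tsh had a signal of 42.2, at the 91.4th percentile, and a score of 187. It lay between genes, 4.62 kb beyond the 3′ end of tsh, with 21.3 in replicate 1 and 16.0 in the stronger of 2 overlapping regions of replicate 2. Replicate 2's own strongest region, with 28.9, lay 0.809 kb from that of replicate 1. The region of the list of both replicates is shown as the strongest near tsh, from chr2L:21841533-21841733, plus strand, with the 21 bases around the summit in capitals.
tsh strongest region: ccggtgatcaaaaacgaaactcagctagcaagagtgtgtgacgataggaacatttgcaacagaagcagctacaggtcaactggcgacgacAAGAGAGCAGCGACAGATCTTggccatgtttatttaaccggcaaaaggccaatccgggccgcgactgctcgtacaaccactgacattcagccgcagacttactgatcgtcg
These bases had 51.2% G and C. The single region at tio, 9.87 kb upstream, had a signal of 39.2, at the 88.6th percentile, and its summit lay in an annotated INE-1 transposable element. It had 9.23 in replicate 1 and 24.1 in replicate 2. Replicate 1's own strongest region, with 29.2, lay 4.36 kb upstream of tio, with its summit in an annotated Cr1a transposable element. Further out, a conservative peak with a signal of 129 lay 30.5 kb beyond the 3′ end of tsh, and the nearest to tio was 152 kb away.

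The Pax6 genes ey and toy had no region at all. They lie on the small chromosome 4, ey (FBgn0005558) at 697689 to 721173 and toy (FBgn0019650) at 989725 to 1007922, both on the plus strand. None of the ranked regions of the list of both replicates, of replicate 1 or of replicate 2 fell within 20 kb of either, while 97.5% of all protein-coding genes had at least 1 in the list of both replicates. The nearest summit was 27.7 kb beyond the 3′ end of ey and 225 kb from toy. In the replicates' own lists it was 27.4 and 27.6 kb from ey and 147 and 226 kb from toy.

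The absence was shared by most of chromosome 4. The list of both replicates held 39 regions there, where the mean density of the 7 arms would give 1241. Replicate 1 held 38 and replicate 2 held 37. The 39 regions lay in 3 groups, 1 of 3 regions near the start of the chromosome, 1 of 19 at 748722 to 764873 and 1 of 17 at 1279125 to 1319169. Of the 80 protein-coding genes of chromosome 4, 6 had a ranked region within 20 kb, or 7.5%. The part of this in the values at ey and toy was not tested.

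Beyond chromosome 4, the start sites of dac, eyg, tsh and tio lay in stretches without a ranked region that were longer than at the median gene. In the list of both replicates the stretch over the 5′ end of the gene was 26.0 kb at dac, 13.0 kb at eyg, 26.8 kb at tsh and 47.0 kb at tio. Over all protein-coding genes its median was 1.62 kb and its 95th percentile 50.4 kb. Among all genes the stretch stood at the 88.9th percentile at dac, the 77.2nd at eyg, the 89.3rd at tsh and the 94.7th at tio. None of these reached the 95th. It was 0.524 kb at eya, 0.566 kb at so, 1.28 kb at toe and 1.59 kb at Optix.

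Both replicates showed the long stretches. At dac the stretch was 22.4 kb in replicate 1, ending at the peak in Tpr2, and 26.1 kb in replicate 2. At eyg it was 10.3 and 12.9 kb, at tsh 21.0 and 23.8 kb, and at tio 13.9 and 42.0 kb in replicates 1 and 2. The short stretch at eya was longer in each replicate than in the list of both, 4.08 kb in replicate 1 and 3.79 kb in replicate 2, where the medians of all genes were 1.90 and 1.85 kb. It was 0.571 and 1.63 kb at so, 0.552 and 1.98 kb at toe and 2.21 and 1.59 kb at Optix. With ey and toy, 6 of 10 members had a stretch of 10 kb or more in the list of both replicates, against 27% of all genes. The same count of 6 held in replicate 1, against 20.2%, and in replicate 2, against 24.8%. The length of 10 kb was chosen after the values were seen. It lies just under the 10.3 kb at eyg in replicate 1, so the equal counts depend on that choice. At 20 kb, tio would pass in the list of both replicates and in replicate 2 but not in replicate 1. The 2 genes on chromosome 4 and the 2 near the base of 2L lie where regions are few, as given above. The part of that in their long stretches was not tested. Of the other members, dac and eyg had a stretch of 10 kb or more, and eya, so, toe and Optix did not.

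**Figure D2:**
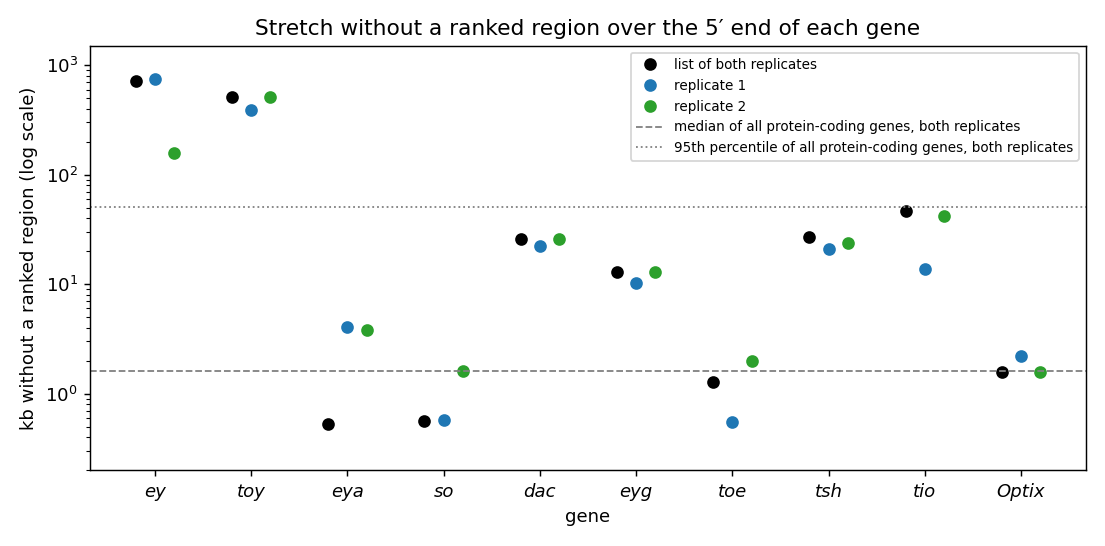
Length in kb of the stretch without a ranked region summit over the 5′ end of each gene (vertical axis, log scale) for the 10 genes (horizontal axis), in the list of both replicates (black) and in each replicate (blue and green). The dashed and dotted lines are the median, 1.62 kb, and 95th percentile, 50.4 kb, of all protein-coding genes; ey, toy, dac, eyg, tsh and tio lie at 10.3 kb or above in every list, and eya, so, toe and Optix at 4.08 kb or below.

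The 8 members outside chromosome 4 ranged widely in the rank of their strongest region, with eya and Optix near the top of all genes and tsh and tio near the bottom. Among the genes with any ranked region, the strongest signal in the window stood at the 93.5th percentile for eya and the 93.9th for Optix. For toe and so it stood at the 56.9th and 55.4th, for dac at the 37.9th, for eyg at the 31.9th, for tsh at the 8.22nd and for tio at the 5.18th. The median strongest signal was 59.9 over the 8 members and 60.6 over all such genes.

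The replicates named the same strongest region at eya and Optix only, where their summits were 21 and 12 bp apart. At the other 6 genes the summits were between 0.809 kb, at tsh, and 27.2 kb, at dac, apart. That is 2 of 8 genes, or 25%, against 32.3% of the 13612 genes with a region in both replicates.

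**Figure D3:**
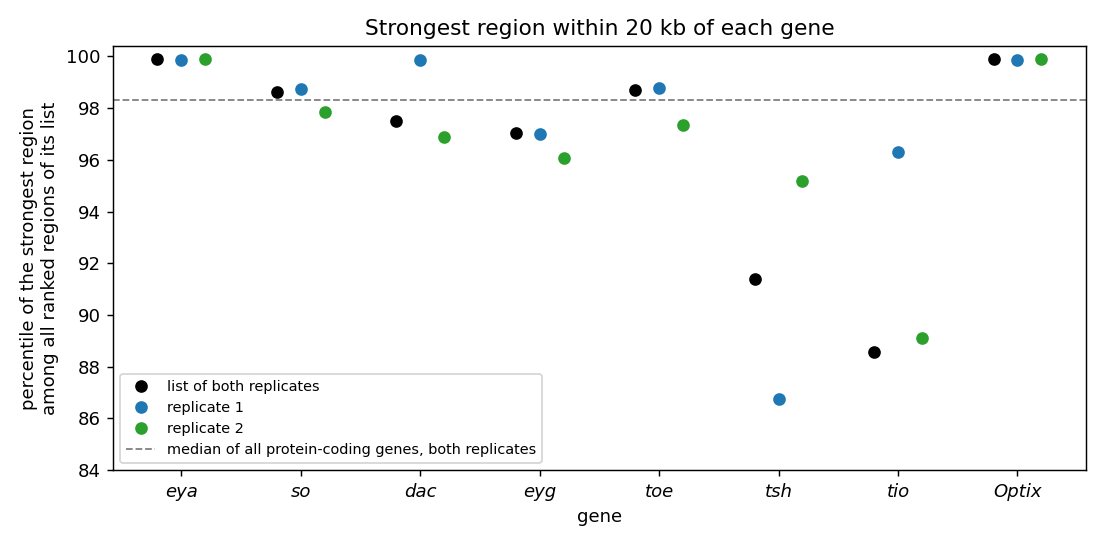
Percentile, among all ranked regions of its list, of the strongest region within 20 kb of each of the 8 genes that have one (vertical axis; it starts at 84), in the list of both replicates and in each replicate. The dashed line is the median of all protein-coding genes, 98.3; eya and Optix lie at 99.9 in all 3 lists, and at dac replicate 1 stands at 99.9 while replicate 2 stands at 96.9.

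With the threshold loosened to an IDR of 0.05, so, dac and toe joined eya and Optix. Then 5 of 10 members had a region within 20 kb, against 55.6% of all genes. The 6 regions were the 3 conservative peaks and the strongest regions at so, dac and toe given above. Those at dac and toe lay within the gene, where 20% of members and 7.88% of all genes had such a region. That share rests on 2 genes, and gene length was not taken into account. Within 5000 and 10000 bp the share of members was still 20%, against 25.6 and 38.2% of all genes. These differences were not tested. In the replicates' own ranked lists at the same threshold, only the peaks near eya and Optix and replicate 1's peak near dac were found, while the regions at so and toe and in the exon of dac did not pass there.

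**Figure D4:**
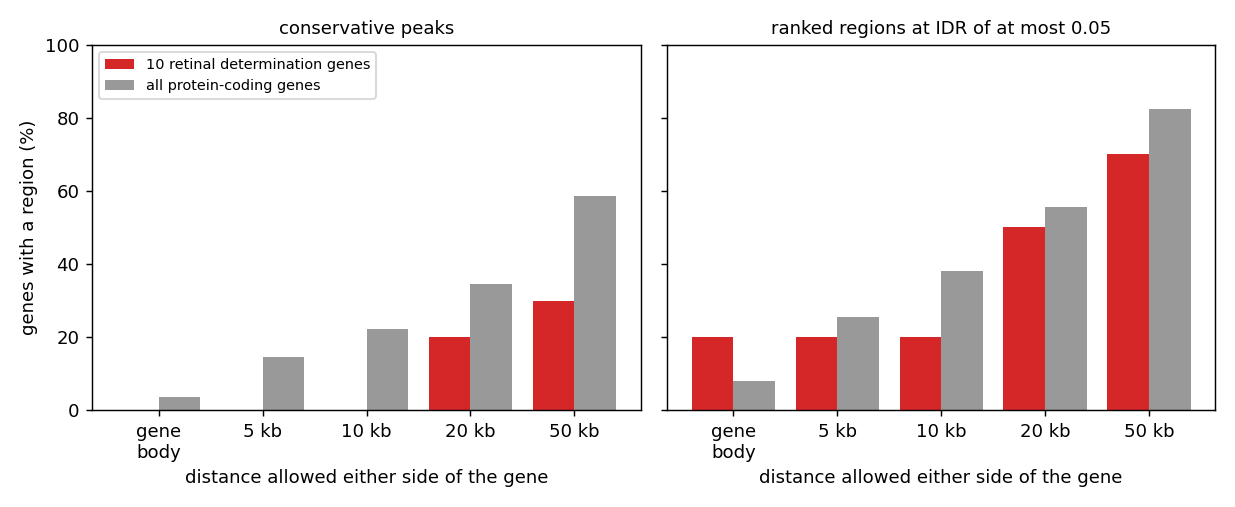
Share of genes (vertical axis, percent) with a conservative peak (left) or a ranked region at an IDR of at most 0.05 (right), by the distance allowed either side of the gene (horizontal axis), for the 10 retinal determination genes (red) and all protein-coding genes (grey). No member has a conservative peak within 10 kb, where 22.2% of all genes do.

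Ranked regions were denser around toe and Optix than around the median gene and less dense around the other 8. The toe window had 126 ranked regions per 100 kb and Optix 109, where the median over all genes was 105. The density was 94.1 at eya, 91.9 at so, 87.9 at eyg, 67.2 at dac, 6.20 at tsh and 2.15 at tio.

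**Figure D5:**
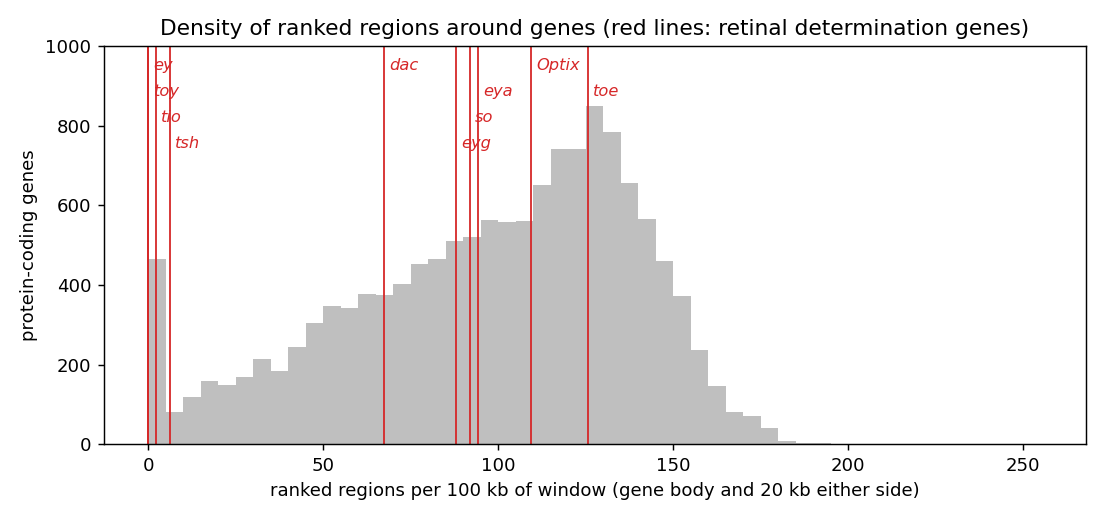
Number of protein-coding genes (vertical axis) by the density of ranked regions in the gene and 20 kb either side (horizontal axis, regions per 100 kb), in the list of both replicates. Red lines mark the 10 retinal determination genes, from 0 at ey and toy to 126 at toe.

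The strongest regions of the 8 genes were mixed in base composition. In the 201 bases around the summit G and C made up 29.4% at Optix, 33.8% at tio, 44.3% at eya and 51.2 to 61.7% at the other 5, against a mean of 39.4% (SD 9.64) over 1078 conservative peaks and 47.6% (SD 7.80) over 126640 ranked regions. The string CAGTG, read on both strands, was found at so and tsh, or 2 of the 8, and in 54.0% of conservative peaks and 35.9% of ranked regions. Neither GAGAGA nor the Zelda string CAGGTAG was found at any of the 8. GAGAGA was in 11.3% of conservative peaks and 6.82% of ranked regions, and CAGGTAG in 1.30% and 1.20%. These strings were chosen with their frequency in the conservative peaks known, and no difference was tested.

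Conservative peaks lay within 20 kb of 2 of the 10 members and of 4 of 7 relatives in the Pax and sine oculis families, against the background of 34.5%. The muscle precursor gene Poxm had one with a signal of 167, 444 bp upstream of its own TSS, with 113 in replicate 1 and 67.7 in replicate 2. Poxn, which specifies poly-innervated sense organs, had one with 77.3, 376 bp from its TSS, with 43.1 and 33.6 in replicates 1 and 2. The peak at the pair-rule gene prd, with 101, lay 17.7 kb upstream of it, near the start of ThrRS. It had 55.8 and 48.5 in replicates 1 and 2. The peak at Six4, with 83.2, lay 10.5 kb beyond its 3′ end, near the start of Pex16, with 36.7 and 45.2. In the own ranked lists of replicates 1 and 2, the score was 1000 and 1000 at Poxm and 631 and 339 at Poxn. It was 1000 and 705 at prd and 23 and 722 at Six4. gsb and gsb-n had none, and neither did sv on chromosome 4. These lists are small, and the difference was not tested.

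Of 15 partners and upstream signals of the network in the eye, 4 had a conservative peak within 20 kb, or 26.7%, against the background of 34.5%. They were dan, the gene of the tagged protein, with 5 peaks and a strongest signal of 269, the Notch receptor gene N with 174 in an intron, the head gap gene oc with 147 and the helix-loop-helix inhibitor gene emc with 133 and 5 peaks. danr, hth, exd, hh, dpp, wg, Ser, upd1, nmo, hbn and hairy (hry) had none. Of 15 eye targets and photoreceptor genes, 4 had one, again 26.7% against that background. They were the ETS genes aop and pnt, with strongest signals of 345 and 116 in introns of their own, the neuronal gene elav with 265 and the homeobox gene ro with 81.1, the last in an intron of Lerp. The proneural gene ato, its partner da and the photoreceptor regulators gl, lz, sens, svp and Pph13 had none within 20 kb, and neither did sca, Egfr, CycE and stg. Both lists are small, and neither difference from the background was tested.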

How the data were processed

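Peak lists from ChIP-seq of 2 biological replicates of dan-GFP embryos were read. Per the labels, sonication gave fragments of 200 to 800 bp, both samples form 1 group, and positions are on dm6. The authors derived the lists from filtered alignments plus a control, as recorded in notes deposited beside them. The aligner and the peak caller were not given in the sources used here.

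Per the file layout, the signal deposited for a region is its caller's value on an unstated scale, so it is used by rank within a list. The score deposited for a region encodes its IDR on a log scale up to 1000 and was turned back into an IDR. The −log10 q deposited for a region served as another ranking.

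A region belonged to a gene when its summit lay in the gene body or within 20000 bp. Genes came from Ensembl release 115 (BDGP6.54), and bases from the RefSeq Release 6 genome; no region on an arm ended beyond that arm. All 37 genes of the partner, target and family lists were matched, 1 through an older symbol. Percentiles are ranks by signal within a list, and overlaps needed at least 1 bp. Printed sequences leave out untranslated exons. With 1 group, no test between groups was run. The members, the lists and the rule for named genes (the 10 members, up to 4 genes with a peak per list and genes nearest to printed regions) were chosen with earlier results of these data known. Counting was tested on simulated intervals. Software was pandas 2.3.3 and numpy 2.4.6 in Python 3.11.15, with figures from matplotlib 3.10.9.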

Additional observations from a re-analysis of the deposited data

How the results depend on the processing

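The count of members with a conservative peak depended on the distance allowed. In the gene body, within 5000 bp, within 10000 bp and by the nearest TSS it was 0 members and 0 peaks, while at IDR of at most 0.05 it was 5 members and 6 regions, and within 50000 bp 3 members and 6 peaks. The share of all genes was 3.50%, 14.6%, 22.2% and 58.6% for the body, 5000, 10000 and 50000 bp, 6.19% by nearest TSS, 38.8% with the other thresholded list, 55.6% at IDR of at most 0.05 and 27.1% with the maximal score alone. Leaving out a replicate (the other's own list) gave 2 to 3 members, 2 to 4 peaks and 21.8 to 33.2% of all genes. At the 37 partner, target and family genes, 12 had a peak, 4 in the gene body, 7 within 5000 bp and by nearest TSS, 22 within 50000 bp, and 8 to 13 with a replicate left out. Of the 8 strongest regions, 2, 3 and 5 were the same with the gene body, 5000 bp and 50000 bp, 7 when ranked by −log10 q, and 3 to 6 with a replicate left out. Regions at IDR of at most 0.05 numbered 3 to 4 with a replicate left out. In the list of both replicates, 5 members had stretches of 20 kb or more. A stretch of 20.3 kb stood at the 85.6th percentile of all genes there. The stretch at tio was only 13.9 kb in replicate 1. The 5000 bp setting for strongest regions, the stretch lengths and the replicates' own lists at IDR of at most 0.05 were chosen after seeing the data. Of 110 settings for single members, 15 moved the count of peaks and 95 did not; the cause was not tested. No paired analysis was possible because the study has 1 group of samples. Without read counts, an absent region cannot be told apart from a lack of depth.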
